A study of Homo sapiens with 12 samples.

Results

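The receptors that place a B cell within lymphoid tissue were examined in 2 lymphoma lines treated with selinexor. The set was chosen with earlier results of these data known. It is defined by gene name and holds 10 of the 58302 genes in the deposited table. The chemokine receptor genes are CXCR5, CXCR4, CCR7, CCR6 and CXCR3. S1PR1 and GPR183 are the egress and positioning receptor genes, and S1PR2 and P2RY8 the confinement receptor genes. GNA13 encodes the G protein alpha subunit that S1PR2 and P2RY8 use. All 10 were found, and all 10 passed the filter on low counts that left 16474 genes for testing.

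In lymphoid tissue, chemokines and lipid mediators are laid down in zones, and the mix of G protein-coupled receptors on a B cell sets the zone it enters. CXCR5 draws B cells into follicles, CCR7 towards the T-cell zone, CXCR4 towards the dark zone of the germinal centre and the bone marrow, CCR6 towards epithelia, and CXCR3 towards sites of interferon-driven inflammation. S1PR1 draws cells out into lymph and blood towards sphingosine-1-phosphate, and GPR183 draws them to the edge of the follicle towards oxysterols. S1PR2 and P2RY8 act through GNA13 and the exchange factor ARHGEF1 to hold germinal centre B cells in the follicle, and genes of this pathway are recurrently mutated in germinal centre-type lymphoma.

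Selinexor inhibits XPO1, the carrier that takes many proteins out of the nucleus. RNA sequencing libraries came from 4 groups of 3 each: selinexor-treated OCI-LY3, untreated OCI-LY3, selinexor-treated SU-DHL6 and untreated SU-DHL6. Both are established human lines of diffuse large B-cell lymphoma, each a single line per lymphoma type, and both carry the genotype label WT. The labels assign OCI-LY3 to the activated B-cell type and SU-DHL6 to the germinal centre B-cell type. Doses of 300 and 100 nM and times of 24 and 48 h are named in the protocols, but the dose and time of a given library or line are not. The replicates are described as biological triplicates with no account of how the cultures were set up, so p-values measure the spread between these libraries, part of which may be technical.

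Library totals lay between 14210200 and 16405842 counts. Levels are given as CPM, counts relative to library totals scaled with TMM factors. The summed level of 11 markers of the activated B-cell type was 3365 to 3429 CPM in treated and 4229 to 4304 CPM in untreated OCI-LY3, against 609 to 657 CPM in treated and 902 to 1005 CPM in untreated SU-DHL6. The summed level of 10 markers of the germinal centre type was 399.7 to 428 CPM in treated and 469 to 479 CPM in untreated OCI-LY3, against 810.1 to 837 CPM in treated and 1158 to 1203 CPM in untreated SU-DHL6. XPO1 mRNA averaged 355 ± 24.5 CPM in treated and 179 ± 7.77 CPM in untreated OCI-LY3, and 520.1 ± 76.6 CPM in treated and 153 ± 23.5 CPM in untreated SU-DHL6 (SD, n = 3 each). A pair of libraries stood apart from their replicates by the chi-square per degree of freedom between counts, for which no threshold was set. It was 25.8 to 29.6 for untreated SU-DHL6 replicate 1 against the others of its group, which differed by 14.6. For treated OCI-LY3 replicate 3 it was 17.3 to 18.1, against 13.01 between the others. Between the treated SU-DHL6 libraries it was 18.7 to 21.4, and between the untreated OCI-LY3 libraries 11.5 to 14.2.

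Levels of the genes were first set side by side per gene length, as the FPKM values that the authors deposited. In treated OCI-LY3 the order of the mean FPKM levels was CCR7 (187), CXCR5 (106), P2RY8 (40.3), CXCR3 (21.8), GPR183 (15.1), GNA13 (11.5), CXCR4 (8.37), S1PR2 (3.40) and S1PR1 (0.362), and CCR6 was listed at 0. In untreated OCI-LY3 it was CXCR5 (149), CCR7 (81.3), P2RY8 (58.7), GNA13 (18.03), GPR183 (13), CXCR3 (11.6), CXCR4 (7.30 FPKM), S1PR2 (5.11) and S1PR1 (0.0106), again with CCR6 at 0. CCR7 thus stood above CXCR5 in treated OCI-LY3 and below it in untreated OCI-LY3, and the libraries of each neighbouring pair in both orders were apart, except S1PR1 and CCR6 in untreated cells.

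SU-DHL6 had another order. In treated SU-DHL6 the mean FPKM levels ran CXCR4 (87.0), GNA13 (80.9), S1PR2 (52.5), P2RY8 (52.0), CXCR5 (35.4), CCR7 (3.57), S1PR1 (1.60), CCR6 (1.498), GPR183 (1.16) and CXCR3 (0.0247). In untreated SU-DHL6 they ran CXCR4 (96.5), GNA13 (63.2), S1PR2 (62.5), P2RY8 (61.4), CXCR5 (36.8), CCR7 (3.67), GPR183 (0.790), CCR6 (0.721), S1PR1 (0.0453) and CXCR3 (listed at 0). Several neighbours did not differ beyond their spread: in treated cells CXCR4 and GNA13, S1PR2 and P2RY8, and S1PR1, CCR6 and GPR183 in turn, and in untreated cells GNA13, S1PR2 and P2RY8 in turn, GPR183 and CCR6, and S1PR1 and CXCR3. The CXCR5 and CCR7 receptors led the set in OCI-LY3, and CXCR4 with the genes of the confinement pathway led it in SU-DHL6.

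**Figure D1:**
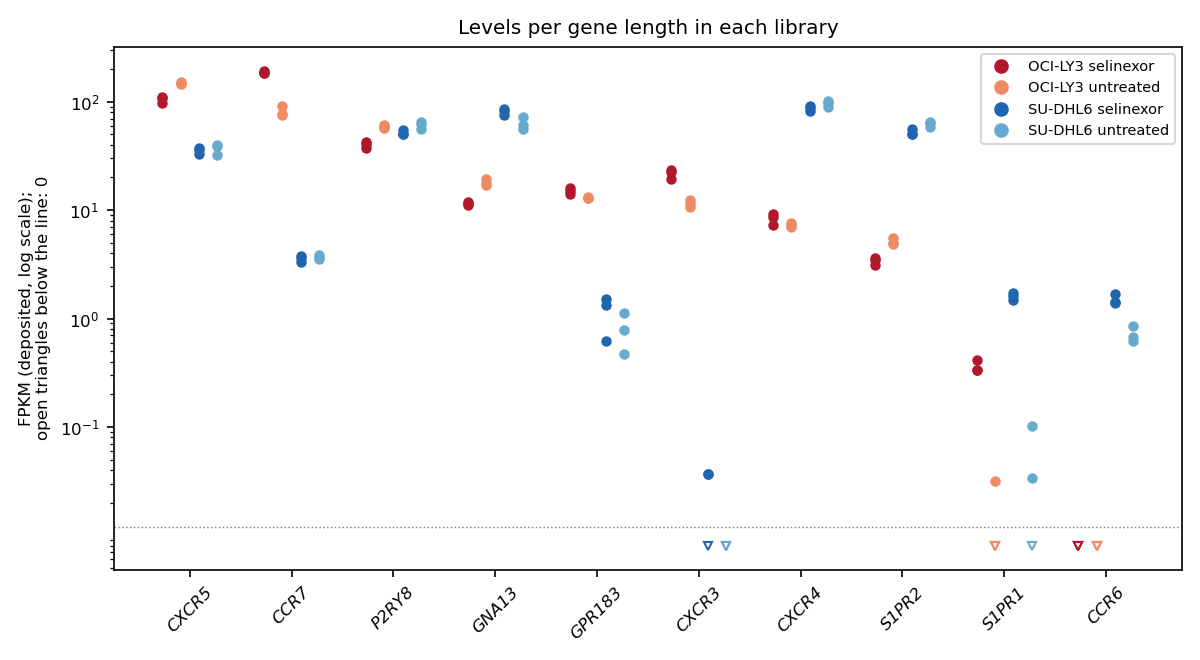
Level of each gene as the deposited FPKM (log scale, per gene length), with 1 point per library and the 4 groups side by side; open triangles under the dotted line are libraries listed at 0. CXCR5, CCR7, GPR183 and CXCR3 lie higher in OCI-LY3, CXCR4, S1PR2, GNA13 and CCR6 lie higher in SU-DHL6, and P2RY8 lies at 37.6 to 65.5 FPKM in all 12 libraries.

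Counts were then compared between groups with the edgeR quasi-likelihood test on 1 model of all 12 libraries, and every adjusted p below is from it, with Benjamini-Hochberg adjustment over the 16474 genes. The threshold for a call was an adjusted p of 0.05. The 10 genes were chosen with earlier results known, so the counts of them called are not independent of these data. CPM are given for replicates 1 to 3 in order, and log2 fold changes are given with their standard error (SE). In treated against untreated OCI-LY3, 8 of the 10 genes were called, 4 higher and 4 lower. Of all genes tested in that comparison 44.4% were called, 22.2% higher and 22.2% lower. In treated against untreated SU-DHL6, 7 of the 10 were called, 2 higher and 5 lower, where 43.2% of all genes were called, 20.4% higher and 22.8% lower. Libraries of the 2 groups did not overlap for 9 of the 10 genes in OCI-LY3 (57.5% of all genes) and for 6 of the 10 in SU-DHL6 (51.1% of all genes). The median log2 fold change of the 10 fitted values was 0.16 in OCI-LY3, with CCR6 entered as no change, and -0.105 in SU-DHL6, against 0.00 in both lines for all genes.

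The scaling of the libraries bears on the small changes. The TMM factors were 0.865 to 0.887 in treated and 0.945 to 0.962 in untreated OCI-LY3, and 1.17 to 1.23 in treated and 0.974 to 1.04 in untreated SU-DHL6. Scaling by library totals alone moved the median log2 fold change of all genes by -0.09 in OCI-LY3 and by 0.26 in SU-DHL6. Changes below are relative to the median gene unless library totals are named.

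**Figure D2:**
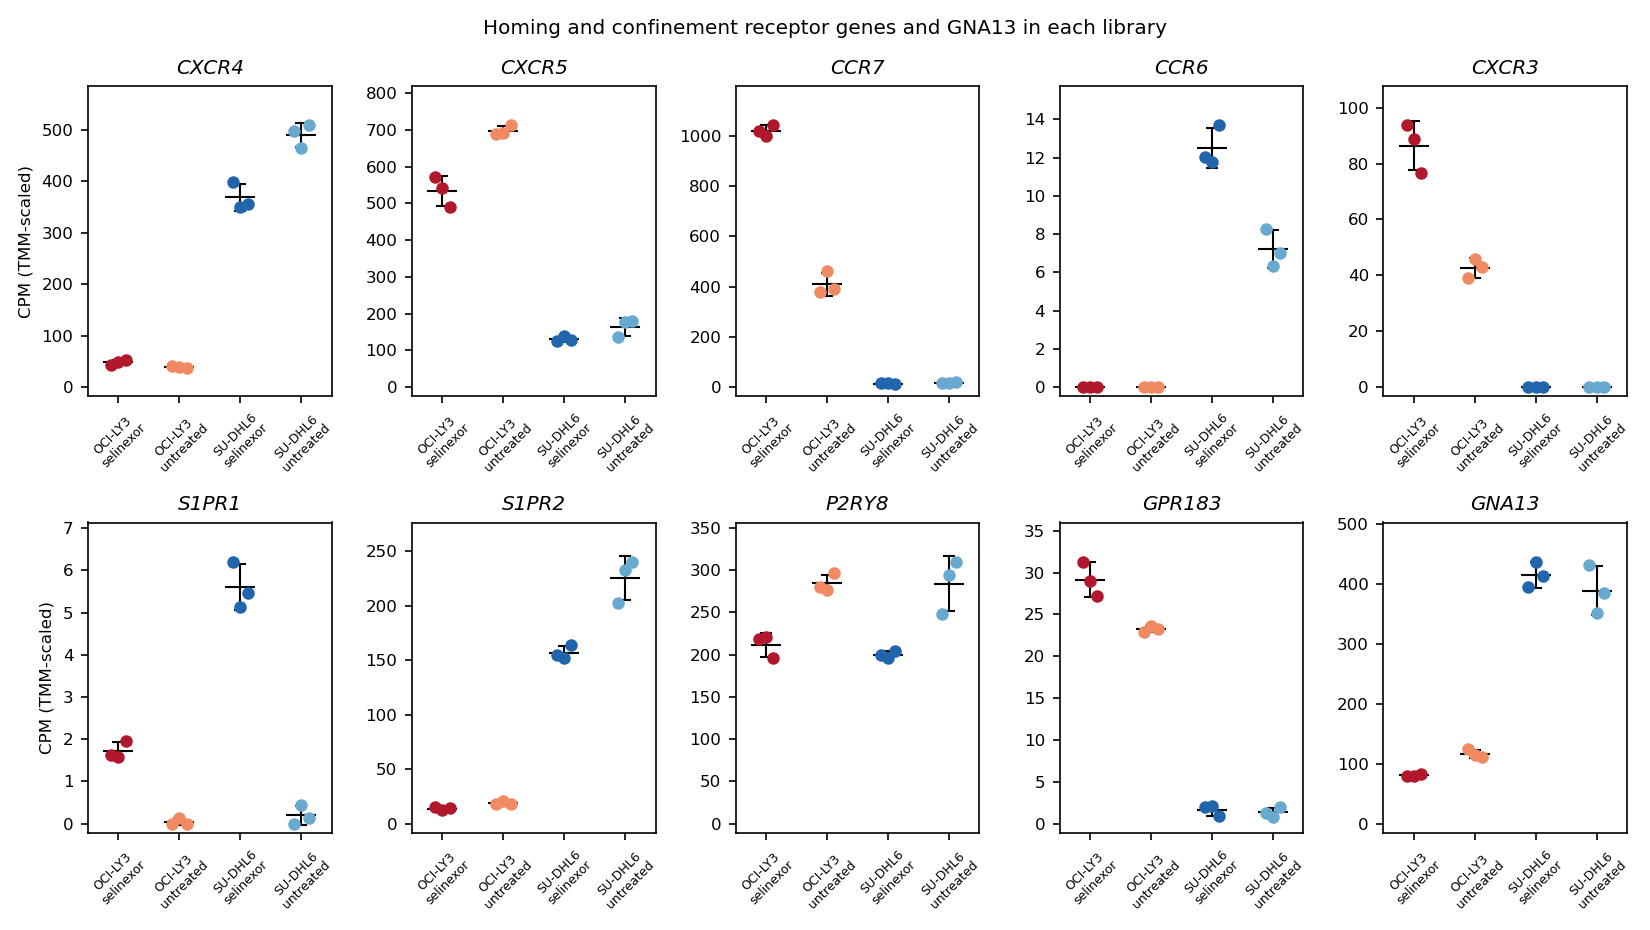
CPM (TMM-scaled) of each gene in each library, 1 panel per gene with its own axis from 0, with the mean (horizontal line) and SD (error bar) of the 3 libraries of a group. CCR7 averaged 1020 CPM in treated and 410 CPM in untreated OCI-LY3, S1PR1 lay above its untreated libraries in both lines, and S1PR2 and P2RY8 lay below theirs in both.

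In OCI-LY3, CCR7 rose 2.49-fold and CXCR3 rose 2.03-fold, and CXCR5 fell. CCR7 (ENSG00000126353, chromosome 17, 40553769 to 40565472, minus strand, on GRCh38), the receptor for CCL19 and CCL21, had 1021, 998 and 1042 CPM in treated OCI-LY3, against 378, 462 and 390 CPM in untreated OCI-LY3. All treated libraries lay far above all untreated ones. The log2 fold change was 1.32 ± 0.10 (adjusted p = 1.79e-07). In such bulk libraries, more cells with a transcript and more of it per cell cannot be told apart. In SU-DHL6, CCR7 had 14.8, 15.1 and 12.9 CPM in treated libraries, against 16.4, 17.7 and 18.9 CPM in untreated ones, a log2 fold change of -0.30 ± 0.11 (adjusted p = 0.0342). The groups did not overlap on this scale, but the call was not kept without treated replicate 3 (adjusted p = 0.132), untreated replicate 2 (0.0724) or untreated replicate 3 (0.178), and with library totals the log2 fold change was -0.04 (adjusted p = 0.784).

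CXCR3 (ENSG00000186810, chromosome X, 71615916 to 71618517, minus strand), the receptor for CXCL9, CXCL10 and CXCL11, had 93.7, 89.0 and 76.6 CPM in treated OCI-LY3, against 39.1, 45.9 and 43.0 CPM in untreated OCI-LY3. The groups were well apart, with a log2 fold change of 1.02 ± 0.15 (adjusted p = 0.00017). In SU-DHL6 it had 2, 2 and 0 counts in treated libraries and 0 counts in each untreated library, where 3 counts, the limit that a count of 0 allows, are 0.186 to 0.217 CPM. No change could be measured there at this depth (adjusted p = 0.0646).

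CXCR5 (ENSG00000160683, chromosome 11, 118883766 to 118897799, plus strand), the receptor for CXCL13, had 571, 541 and 489 CPM in treated OCI-LY3, against 689, 691 and 712 CPM in untreated OCI-LY3. Each treated library lay below each untreated one, and the log2 fold change was -0.39 ± 0.11 (adjusted p = 0.00954). It had 125, 138 and 129.5 CPM in treated SU-DHL6, against 136.5, 176 and 179.9 CPM in untreated SU-DHL6. There untreated replicate 1, the library that stood apart, fell within the treated range. The log2 fold change was -0.33 ± 0.11 (adjusted p = 0.0243) with that library and -0.45 (adjusted p = 0.000938) without it. The call was not kept without treated replicate 1 (adjusted p = 0.0668), treated replicate 3 (0.0615), untreated replicate 2 (0.0867) or untreated replicate 3 (0.159), nor with library totals (log2 fold change -0.06, adjusted p = 0.653). The exons of CXCR5 overlap those of BCL9L on the opposite strand, and whether the counting used strand is not given in the sources used here. BCL9L was not called in either line.

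CXCR4 moved in opposite directions in the lines, by small amounts. CXCR4 (ENSG00000121966, chromosome 2, 136114349 to 136118165, minus strand), the receptor for CXCL12, had 43.2, 49.4 and 52.1 CPM in treated OCI-LY3, against 40.5, 38.8 and 37.4 CPM in untreated OCI-LY3. The groups lay close but did not overlap, with a log2 fold change of 0.31 ± 0.10 (adjusted p = 0.0172). This call was not kept without treated replicate 2 (adjusted p = 0.0589), treated replicate 3 (0.0751), untreated replicate 2 (0.0524) or untreated replicate 3 (0.0675), nor with library totals (log2 fold change 0.20, adjusted p = 0.119). In SU-DHL6 it had 398.5, 350.4 and 356 CPM in treated libraries, against 497, 464 and 508.5 CPM in untreated ones. Each treated library lay below each untreated one, and the log2 fold change was -0.41 ± 0.09 (adjusted p = 0.00255). With library totals the fall was -0.15 (adjusted p = 0.211), which is -0.41 relative to the median gene.

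CCR6 had counts in SU-DHL6 only and rose there. CCR6 (ENSG00000112486, chromosome 6, 167111807 to 167139696, plus strand), the receptor for CCL20, had 0 counts in all 6 OCI-LY3 libraries, which allows up to 0.225 to 0.233 CPM in treated and 0.209 to 0.220 CPM in untreated libraries. It had 12.02, 11.8 and 13.7 CPM in treated SU-DHL6, against 8.27, 6.34 and 7.01 CPM in untreated SU-DHL6. The groups did not overlap, and the log2 fold change was 0.79 ± 0.19 (adjusted p = 0.00634). An overlapping transcript on the same strand, Z94721.2, had 2 to 23 counts in the 12 libraries.

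The pair of sphingosine-1-phosphate receptors moved in opposite directions in both lines. The sequences before their first annotated starts are shown because these genes share a ligand and differ in response. They are read 5′ to 3′ on the gene's strand from RefSeq promoter windows on GRCh38.p14, S1PR1 at chr1:101236769-101236864 (plus strand) and S1PR2 at chr19:10231332-10231581 (minus strand), and capitals mark the match to GGGNGTG, a motif of the kind bound by KLF-family factors, chosen for display after the sequences were read.
S1PR1: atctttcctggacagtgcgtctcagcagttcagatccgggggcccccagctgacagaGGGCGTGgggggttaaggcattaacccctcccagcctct
S1PR2: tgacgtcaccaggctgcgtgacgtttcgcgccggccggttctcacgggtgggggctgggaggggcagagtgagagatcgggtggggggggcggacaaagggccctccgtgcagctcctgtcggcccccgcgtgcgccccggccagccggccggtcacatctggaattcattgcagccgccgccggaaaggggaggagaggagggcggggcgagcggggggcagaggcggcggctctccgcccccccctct

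Windows of 250 bases before the RefSeq start were found for 9 of the 10 genes, 15 windows in all, and 6 motifs were searched on both strands in these and in all 35116 such windows. GGGNGTG occurred in 27.1% of all windows, and 3 of the 15 windows held it: the S1PR1 window with 1 match, 1 of the 3 CXCR4 windows with 2 and 1 of the 2 GNA13 windows with 2. The S1PR2 window held none. CACCC, which can overlap GGGNGTG on the other strand, occurred in 54.7% of all windows and 2 times each in the S1PR1 and S1PR2 windows. Neither of this pair held TGTTTAC (2.98% of all windows), TGACTCA (4.20%), CACGTG (6.35%) or TTCNNNGAA (6.57%). The GC content of the whole windows was 64.4% for S1PR1 and 74.0% for S1PR2. The S1PR1 stretch shown is the first 96 bases of its window and holds no CACCC on either strand. The S1PR2 window is shown whole.

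S1PR1 (ENSG00000170989, chromosome 1, 101236888 to 101241518, plus strand), the egress receptor, was near the limit of detection in untreated cells and rose in both lines. It had 21, 21 and 26 counts in treated OCI-LY3, against 0, 2 and 0 counts in untreated OCI-LY3. Summed over the libraries, 68 counts against 2 gave a 36.4-fold ratio per scaled library total, with an exact 95% counting interval of 9.70 to 306.7 (adjusted p = 0.000104). In SU-DHL6 it had 112, 95 and 102 counts in treated libraries, against 0, 7 and 2 counts in untreated ones, a 27.7-fold ratio (14.4 to 61.2, adjusted p = 6.55e-06). The treated libraries lay well above the untreated ones in both lines, and the intervals cover counting error only. The call was kept in each line when any 1 library was left out, but the size rests on few untreated counts. Without untreated OCI-LY3 replicate 2, S1PR1 was at least 8.03-fold higher against 3 counts per library, without replicate 1 it was 24.02-fold higher, and without untreated SU-DHL6 replicate 2 it was 79.9-fold higher (21.9 to 662.5). The level reached remained low, at 1.72 ± 0.21 CPM in treated OCI-LY3 and 5.60 ± 0.55 CPM in treated SU-DHL6 (SD, n = 3 each).

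S1PR2 (ENSG00000267534, chromosome 19, 10221435 to 10231272, minus strand), the confinement receptor for the same ligand, fell in both. It had 15.1, 12.6 and 13.97 CPM in treated OCI-LY3, against 18.5, 21.1 and 18.3 CPM in untreated OCI-LY3, a log2 fold change of -0.47 ± 0.11 (adjusted p = 0.00274). It had 154, 152 and 164 CPM in treated SU-DHL6, against 202, 233 and 240.1 CPM in untreated SU-DHL6, a log2 fold change of -0.52 ± 0.10 (adjusted p = 0.000707). No treated library reached an untreated one in either line. An exon of S1PR2 overlaps one of DNMT1 on the same strand, and DNMT1, the maintenance DNA methyltransferase, fell by 1.32 ± 0.09 on the log2 scale in OCI-LY3 and by 1.60 ± 0.09 in SU-DHL6 (SE). The part of shared reads in the fall of S1PR2 was not tested.

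P2RY8 (ENSG00000182162, chromosome X, 1462572 to 1537107, minus strand), which signals confinement in response to S-geranylgeranyl-L-glutathione, fell in both lines as well. It had 218, 221 and 196 CPM in treated OCI-LY3, against 279.7, 277 and 296 CPM in untreated OCI-LY3, a log2 fold change of -0.43 ± 0.10 (adjusted p = 0.00237). It had 199.8, 196 and 205 CPM in treated SU-DHL6, against 248, 294 and 310.0 CPM in untreated SU-DHL6, a log2 fold change of -0.51 ± 0.10 (adjusted p = 0.000694). Every treated library lay below every untreated one of its line. With library totals, the calls for S1PR2 and P2RY8 in SU-DHL6 were kept at smaller sizes, -0.25 (adjusted p = 0.0385) for S1PR2 and -0.24 (adjusted p = 0.0374) for P2RY8.

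GNA13 (ENSG00000120063, chromosome 17, 65010715 to 65056839, minus strand) fell in OCI-LY3, with 79.9, 79.9 and 82.4 CPM in treated libraries, against 124, 115 and 111 CPM in untreated ones. The groups were clearly apart, and the log2 fold change was -0.53 ± 0.09 (adjusted p = 0.0004). In SU-DHL6 it had 394, 437 and 413 CPM in treated libraries, against 431, 351 and 384 CPM in untreated ones. These overlapped, with a log2 fold change of 0.09 ± 0.09 (adjusted p = 0.445). With library totals the SU-DHL6 value was 0.36 and past the threshold (adjusted p = 0.0106), and it was 0.09 relative to the median gene.

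GPR183 (ENSG00000169508, chromosome 13, 99294530 to 99307405, minus strand), the oxysterol receptor also named EBI2, was called in neither line. It had 31.3, 29.03 and 27.2 CPM in treated OCI-LY3, against 22.9, 23.6 and 23.3 CPM in untreated OCI-LY3. These did not overlap, with a log2 fold change of 0.33 ± 0.23 (adjusted p = 0.270). With OCI-LY3 fitted alone, the value was 0.31 and past the threshold (adjusted p = 0.0217). In SU-DHL6 it had 35, 40 and 16 counts in treated libraries, against 19, 13 and 27 counts in untreated ones, which overlapped (log2 fold change 0.31 ± 0.32, adjusted p = 0.479).

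**Figure D3:**
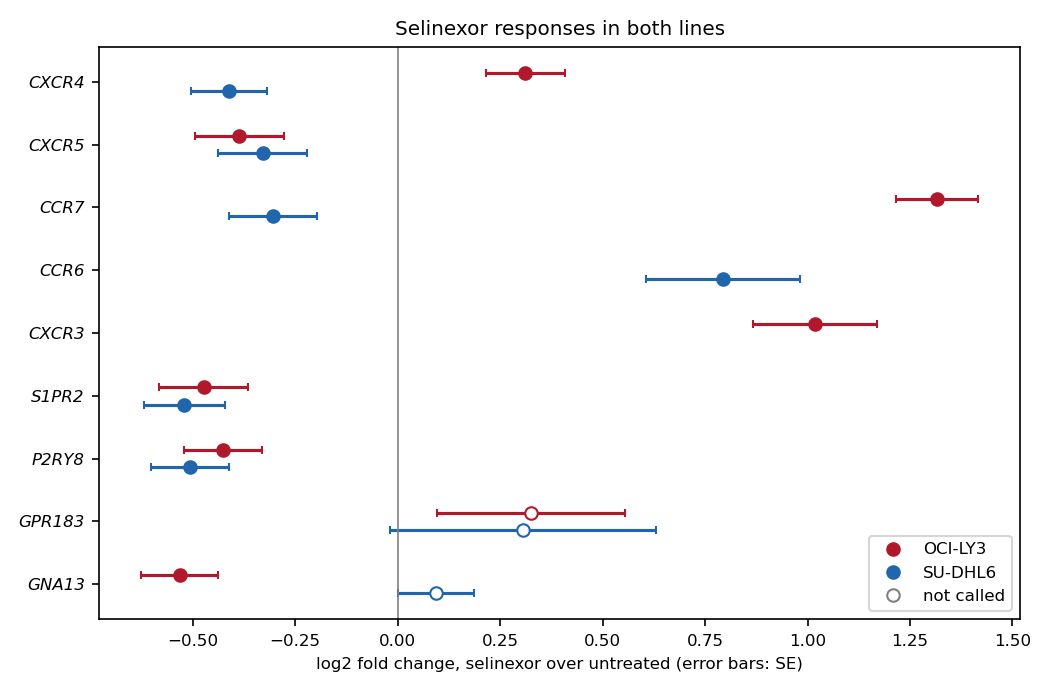
Log2 fold change (selinexor over untreated) of each gene in OCI-LY3 and SU-DHL6, with the SE as error bars and open points for genes not called; S1PR1, CCR6 in OCI-LY3 and CXCR3 in SU-DHL6 are not drawn because untreated counts were at or near 0. CXCR4 and CCR7 lie on opposite sides of 0 in the lines, while CXCR5, S1PR2 and P2RY8 lie below 0 in both, and with library totals CXCR4, CXCR5 and CCR7 are not called in SU-DHL6.

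The difference between the responses of the lines was tested directly. It was called for 3 of the 10 genes, 2 higher and 1 lower, where 36.9% of all genes were called, 19.9% higher and 17% lower. The OCI-LY3 response minus the SU-DHL6 response was 1.62 ± 0.15 on the log2 scale for CCR7 (adjusted p = 2.29e-06), 0.72 ± 0.13 for CXCR4 (adjusted p = 0.000786) and -0.62 ± 0.13 for GNA13 (adjusted p = 0.00202). With library totals the CCR7 difference was 1.24 (adjusted p = 9.46e-06), the CXCR4 difference was 0.35 (adjusted p = 0.0556) and the GNA13 difference was -1.002 (adjusted p = 0.000108). Whether the lines received the same dose for the same time is not given in the sources used here, so line and exposure cannot be told apart in these differences.

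CCR6 in OCI-LY3 and CXCR3 in SU-DHL6 had counts at or near 0, so the difference of their responses could not be measured. For the remaining genes not called, no difference between the lines was shown. The interval of 2 SE around it covers the spread between libraries under TMM scaling only, not the choice of scaling. It ran from -0.36 to 0.25 for CXCR5, from -0.25 to 0.34 for S1PR2 and from -0.19 to 0.35 for P2RY8. It was wider for the genes with few counts, from -0.85 to 0.89 for GPR183 and from -1.27 to 1.69 for S1PR1. With library totals the CXCR5 difference was past the threshold at -0.44 (adjusted p = 0.0188), and it was -0.09 relative to the median gene. Library totals also put S1PR2 (-0.34) and P2RY8 (-0.30) outside their intervals, at 0.02 and 0.05 relative to the median gene. Without 1 library each, the S1PR1 difference ran from -1.19 to 2.98, beyond its interval at the upper end.

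Between the untreated lines, OCI-LY3 against SU-DHL6, 8 of the 10 genes were called, 4 higher and 4 lower, where 67.3% of all genes were called, 33.6% higher and 33.7% lower. Libraries of the lines did not overlap for 8 of the 10 (70.9% of all genes). CCR7 (log2 4.54 ± 0.12), GPR183 (4.12 ± 0.29) and CXCR5 (2.09 ± 0.11) were higher in OCI-LY3, and CXCR4 (-3.66 ± 0.10), S1PR2 (-3.55 ± 0.11) and GNA13 (-1.74 ± 0.10) were lower. CXCR3 was at least 211-fold higher in OCI-LY3, and CCR6 at least 33.8-fold higher in SU-DHL6, both against 3 counts per library. P2RY8 gave 0.00 ± 0.10 (adjusted p = 0.993), with overlapping libraries. S1PR1 gave 0, 2 and 0 counts in OCI-LY3 and 0, 7 and 2 counts in SU-DHL6, and was not called (adjusted p = 0.129). Without untreated OCI-LY3 replicate 2 or untreated SU-DHL6 replicate 1 it was called (adjusted p = 0.0312 and 0.0255).

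Between the treated lines 9 of the 10 were called, 4 higher and 5 lower, where 72% of all genes were called, 36.2% higher and 35.8% lower. Libraries did not overlap for 9 of the 10 (76% of all genes). CCR7 stood 6.16 ± 0.12 log2 units higher in treated OCI-LY3 than in treated SU-DHL6, and CXCR4 (-2.93 ± 0.10) and GNA13 (-2.36 ± 0.10) were lower in treated OCI-LY3. CXCR5 (2.03 ± 0.11), GPR183 (4.14 ± 0.28) and S1PR2 (-3.50 ± 0.11) gave values close to those between the untreated lines. S1PR1 was lower in treated OCI-LY3 than in treated SU-DHL6 (-1.69 ± 0.39, adjusted p = 0.00135). CXCR3 gave 3405 against 4 counts, a 1194-fold ratio (95% counting interval 465.9 to 4385), and CCR6 was at least 54.7-fold higher in treated SU-DHL6. P2RY8 gave 0.08 ± 0.10 (adjusted p = 0.455), and with library totals -0.37 (adjusted p = 0.00153), a reversal of sign.

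The genes around these receptors were taken from 5 lists, also chosen with earlier results of these data known. Counts of called genes are given over the members that were tested and had a count in the line, beside the 44.4% called among all genes in OCI-LY3 and 43.2% in SU-DHL6, and the median log2 fold change of all genes with a count was 0.01 in OCI-LY3 and 0.02 in SU-DHL6. Within each list and direction the genes named are the 2 with the smallest adjusted p among those with a mean of at least 10 counts in the higher group. Naming a gene under one line does not mean that it was unchanged in the other. The ligand genes, SPHK1, SPHK2, ABCC1 and GGT5 are given whatever their values, and other exceptions are stated.

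Most ligand genes had no counts in one line or both. MIF, a further gene of the ligand list given outside the naming rule, had counts in both lines and was called in neither. Its log2 fold change was -0.26 ± 0.13 (adjusted p = 0.104) in OCI-LY3 and 0.10 ± 0.13 (adjusted p = 0.5535) in SU-DHL6. CXCL12, CCL21, CCL20, CH25H and CYP7B1 had 0 counts in all 12 libraries, and CCL19 had 4 counts in 1 treated OCI-LY3 library. CXCL13, CXCL9, CXCL10 and CXCL11 had 0 counts in all SU-DHL6 libraries. In OCI-LY3, CXCL13, the CXCR5 ligand, had 1557, 1673 and 1969 counts in treated libraries, against 14, 6 and 11 counts in untreated ones, a log2 fold change of 7.47 ± 0.23 (adjusted p = 6.08e-09). The treated libraries lay far above the untreated ones, beside the fall of CXCR5 in the same line. Of the CXCR3 ligands, CXCL10 fell (-0.52 ± 0.10, adjusted p = 0.0016), CXCL9 rose at low counts (26, 24 and 32 in treated and 16, 12 and 15 in untreated libraries, adjusted p = 0.031), and CXCL11 had 1, 7 and 2 counts in treated and 3, 4 and 6 counts in untreated libraries.

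Of the list of ligand genes and genes of ligand synthesis, export and breakdown, 4 of 17 rose and 4 fell in OCI-LY3 (median log2 -0.05), and 1 of 13 rose and 3 fell in SU-DHL6 (median -0.20). SGPP2, a phosphatase that removes the phosphate of sphingosine-1-phosphate, went opposite ways: it had 59.5, 49.6 and 50.3 CPM in treated and 24.3, 23.9 and 24.3 CPM in untreated OCI-LY3 (log2 1.14 ± 0.16), and 27, 35 and 16 counts in treated against 130, 120 and 104 counts in untreated SU-DHL6 (log2 -2.48 ± 0.21). The difference of its responses was 3.62 ± 0.26 (adjusted p = 3.72e-07). SPHK1, a kinase that makes the ligand, had 0, 1 and 2 counts in treated and 7, 6 and 6 counts in untreated OCI-LY3 and fell there (adjusted p = 0.00875). SPHK2 was called in neither line (adjusted p = 0.134 in OCI-LY3 and 0.164 in SU-DHL6). ABCC1, which exports the ligand of P2RY8, fell in OCI-LY3 (-0.84 ± 0.10), and GGT5, which breaks it down, had 0, 2 and 2 counts in treated OCI-LY3 and 0 counts in the other 9 libraries. PLPP1, a lipid phosphatase, fell in SU-DHL6 (-0.87 ± 0.11), and GGT7 was higher there with overlapping libraries (34, 18 and 38 counts in treated and 4, 22 and 8 counts in untreated libraries, adjusted p = 0.0468).

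In the list of G protein and RhoA signalling, 5 of 36 genes rose and 5 fell in OCI-LY3 (median log2 -0.02), and 11 of 36 rose and 16 fell in SU-DHL6 (median -0.26). In SU-DHL6 the kinases that act below RhoA rose: ROCK1 had 137, 191 and 156 CPM in treated and 69.6, 49.2 and 56.3 CPM in untreated libraries (log2 1.47 ± 0.16), and ROCK2 rose by 1.22 ± 0.16. RHOA itself fell there, with 490, 467 and 463 CPM in treated and 777, 810 and 867 CPM in untreated libraries (log2 -0.79 ± 0.09), as did RGS10, a brake on G protein signalling (-1.99 ± 0.11). The difference of the responses was called for ROCK1 (-1.57 ± 0.23), ROCK2 (-1.61 ± 0.22), RHOA (0.59 ± 0.12) and RGS10 (2.01 ± 0.14), with adjusted p of 0.000121, 8.86e-05, 0.00179 and 2.88e-07. In OCI-LY3, TAGAP, a RhoA-binding GTPase-activating protein (0.65 ± 0.10), and RASGRP2, an exchange factor for Rap1 (0.76 ± 0.12), rose, and PIK3R5, a regulatory subunit of PI3K gamma (-1.73 ± 0.33), and GNAS, the stimulatory alpha subunit (-0.41 ± 0.11), fell. RASGRP2 fell in SU-DHL6 (-0.46 ± 0.13, adjusted p = 0.0105). Outside the naming rule and picked after its values were seen, ARHGEF1, an exchange factor that links GNA13 to RhoA, fell in both lines (-0.36 ± 0.12, adjusted p = 0.0276, in OCI-LY3 and -0.64 ± 0.12, adjusted p = 0.000732, in SU-DHL6). ARHGEF11 and ARHGEF12 of the same list did not. ARHGEF11 rose in SU-DHL6 (0.43 ± 0.16, adjusted p = 0.0401) and was not called in OCI-LY3 (adjusted p = 0.407). ARHGEF12 was called in neither line (adjusted p = 0.157 in OCI-LY3 and 0.716 in SU-DHL6).

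Among other chemoattractant and lipid receptors, 5 of 17 rose and 3 fell in OCI-LY3 (median log2 -0.04), and 2 of 16 rose and 3 fell in SU-DHL6 (median 0.07). P2RY14, a receptor for UDP-sugars, had 304, 307 and 338 counts in treated and 42, 30 and 25 counts in untreated OCI-LY3 (log2 3.39 ± 0.27), with 0 to 2 counts in the SU-DHL6 libraries. The cannabinoid receptor CNR2 rose in OCI-LY3 (0.54 ± 0.09), and the leukotriene receptor LTB4R (-0.96 ± 0.21) and the prostaglandin receptor PTGER4 (-0.77 ± 0.21) fell. In SU-DHL6 the lysophosphatidic acid receptor LPAR5 (0.84 ± 0.15) and the adenosine receptor ADORA2A (0.54 ± 0.13) rose, and LPAR2 (-0.46 ± 0.13) and CCR10 (-1.26 ± 0.43, at 3 to 18 counts a library) fell. LPAR5 rose in OCI-LY3 too (0.47 ± 0.15, adjusted p = 0.0233), and the difference of its responses was not called (adjusted p = 0.188).

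Of the adhesion genes, 9 of 28 rose and 10 fell in OCI-LY3 (median log2 0.06), and 2 of 27 rose and 9 fell in SU-DHL6 (median -0.14). In OCI-LY3 the plexin PLXNB2 (0.90 ± 0.14) and the tetraspanin CD9 (2.94 ± 0.46) rose, and the LFA-1 chain ITGAL (-1.02 ± 0.11) and SEMA4D (-1.11 ± 0.13), a semaphorin that binds B-type plexins, fell. In SU-DHL6 the P-selectin ligand SELPLG (1.11 ± 0.19) and the ephrin receptor EPHB4 (0.90 ± 0.19) rose, and the tetraspanin CD82 (-1.13 ± 0.14) and the gut-homing integrin chain ITGB7 (-1.06 ± 0.14) fell. In OCI-LY3, SELPLG (-1.275 ± 0.19, adjusted p = 9.28e-05) and EPHB4 (-1.27 ± 0.20, adjusted p = 0.000136) fell, and CD82 rose (0.71 ± 0.13, adjusted p = 0.000408). ITGB7 was not called there (adjusted p = 0.253). ITGAL fell in SU-DHL6 as well (-0.53 ± 0.10, adjusted p = 0.000701). Whether the balance of directions differed between the lines was not tested.

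Of the transcription factors linked to homing receptor genes, 7 of 24 rose and 6 fell in OCI-LY3 (median log2 0.13), and 4 of 24 rose and 11 fell in SU-DHL6 (median -0.34). ID3, an inhibitor of E proteins, had 147, 154 and 137.5 CPM in treated and 18.3, 20.4 and 17.6 CPM in untreated OCI-LY3 (log2 2.97 ± 0.13). In SU-DHL6 it had 26.9, 23.2 and 25.8 CPM in treated and 57.5, 79.1 and 77.9 CPM in untreated libraries (log2 -1.5 ± 0.13). The groups were apart in both lines and moved opposite ways, a difference of 4.46 ± 0.18 (adjusted p = 4.63e-09). SPIB, an Ets-family factor, likewise rose in OCI-LY3 (0.81 ± 0.11) and fell in SU-DHL6 (-1.11 ± 0.11), a difference of 1.93 ± 0.15 (adjusted p = 8.04e-07). IRF4 (-0.99 ± 0.08) and the E protein TCF3 (-1.39 ± 0.12) fell in OCI-LY3, and STAT3 (1.44 ± 0.10) and FOXO1 (0.54 ± 0.10) rose in SU-DHL6. IRF4 also fell in SU-DHL6 (-0.51 ± 0.08, adjusted p = 0.000148), and FOXO1 also rose in OCI-LY3 (0.32 ± 0.10, adjusted p = 0.0188). KLF2, known to activate S1PR1 in lymphocytes and picked outside the naming rule after its values were seen, had 10, 17 and 3 counts in treated and 1, 12 and 11 counts in untreated OCI-LY3. It had 51, 43 and 48 counts in treated and 38, 53 and 46 counts in untreated SU-DHL6. The KLF2 libraries overlapped in both lines and it was called in neither (adjusted p = 0.623 in OCI-LY3 and 0.676 in SU-DHL6). Of the other KLF genes in the list, KLF3 fell in OCI-LY3 (0, 2 and 1 counts in treated and 8, 6 and 13 counts in untreated libraries, adjusted p = 0.00224) and was not called in SU-DHL6 (adjusted p = 0.182), and KLF6 was called in neither line (adjusted p = 0.402 in OCI-LY3 and 0.285 in SU-DHL6).

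**Figure D4:**
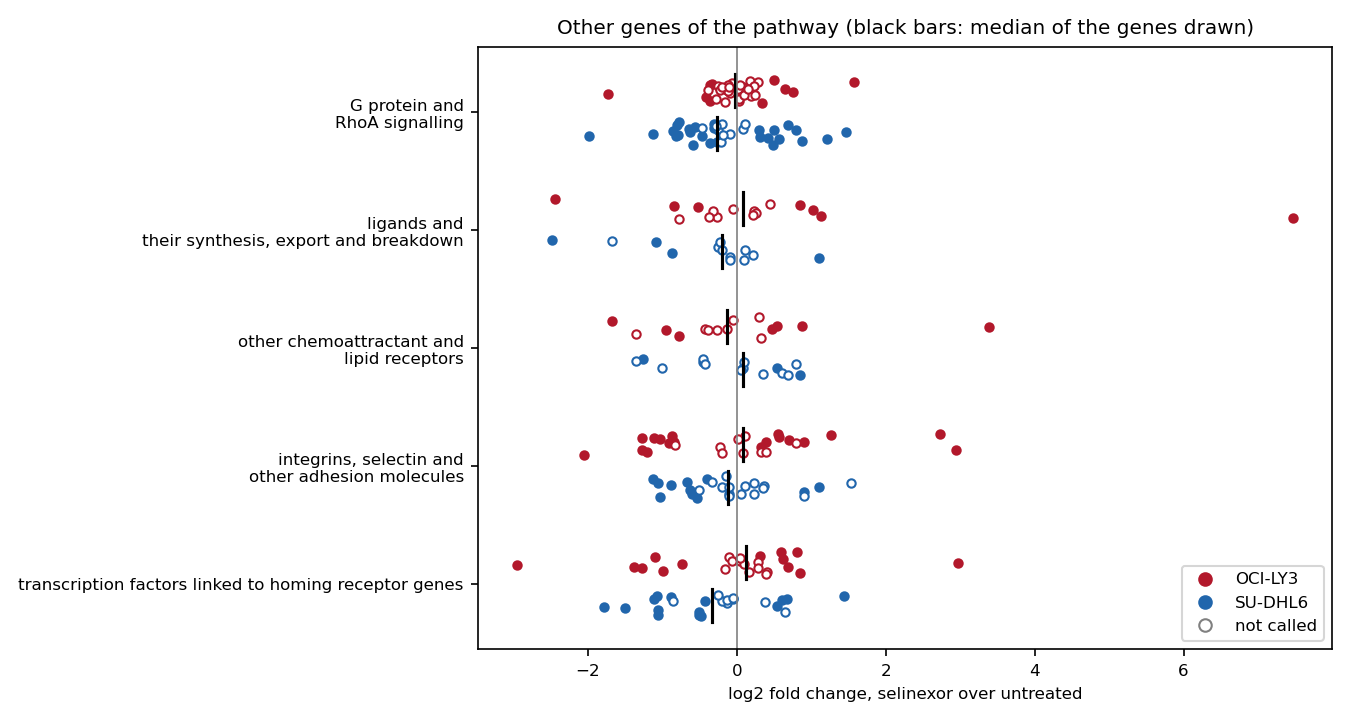
Log2 fold change (selinexor over untreated) of each gene of the 5 lists with counts in both groups of a line, OCI-LY3 above SU-DHL6 in each list, with filled points for called genes and black bars for the median of the genes drawn. CXCL13 lies alone at 7.47 in OCI-LY3, and in SU-DHL6 the median bars of 4 of the 5 lists lie below 0, all but that of the other receptors.

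Profiles most like each gene called for selinexor in either line were found among 8689 protein-coding genes over the 12 libraries. The measure was the smallest root mean square difference of log2 CPM relative to the untreated libraries of the same line. GPR183, called in neither line, was left out. The closest to GNA13 was TOMM70 (0.0486), to P2RY8 EIF3I (0.0513), to CXCR5 PLAGL2 (0.0675), to S1PR2 SAP130 (0.0797), to CXCR4 HACL1 (0.0822) and to CCR7 SPINT2 (0.0994). None is given for CCR6 and CXCR3, whose counts were at or near 0 in all libraries of one line. S1PR1, whose untreated libraries held 0 to 7 counts, lay farther from its closest gene, ARRDC3, at 0.687, with log2 changes of 3.06 in OCI-LY3 and 3.84 in SU-DHL6, and the next, LRRC8D, was at 1.10.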

How the data were processed

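Libraries were made with an mRNA kit, per the labels' protocols. The authors deposited 1 table of 58302 genes and 12 libraries, with columns of read count and of FPKM per the file headers. How reads were aligned and counted, and whether by strand, is not given in the sources used here. Mouse builds (GRCm38, mm10) appear in the submitters' processing notes, whereas the table has human Ensembl identifiers, 58039 of which match GENCODE release 29 (GRCh38), 97.5% with the same coordinates. Coordinates of genes are the table's. Among the 10 genes, S1PR1 and S1PR2 have table coordinates that differ from GENCODE. The deposited FPKM values were used to order levels only. Over 9162 genes with at least 50 counts, the gene length implied by count and FPKM was the same in all libraries to within a ratio of 1.00002.

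The tests used the deposited counts and edgeR 4.0.16 under R 4.3.3: filterByExpr by group, TMM factors, 1 coefficient for each of 4 groups, robust quasi-likelihood F tests of 5 contrasts and Benjamini-Hochberg adjustment over 16474 genes. SE is the log2 fold change over the root of F. The same steps were tested on simulated data. Bounds use 3 counts per library, and ratios of summed counts an exact 95% interval, both covering counting error only. Alternatives were RLE, upper-quartile or no scaling factors, DESeq2 1.42.0, limma-voom (limma 3.58.1), no filter or a filter at 1 CPM, each line alone, no robust moderation, a replicate block and leaving out each library.

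The 10 genes and the lists were chosen with earlier results of these data known. Genes named from a list were, per line and direction, the 2 called with the smallest adjusted p and a mean of at least 10 counts in the higher group. The ligand genes, XPO1 and the 2 nearest profiles (mean log2 CPM at least 3) were named besides. Profiles were sought only for genes of the set called for selinexor in either line, which leaves out GPR183. Part of the nearest profiles is printed, none for CCR6 and CXCR3. Markers of T cells, myeloid cells and stromal cells summed to at most 35.9, 4.98 and 38.4 CPM in a library, with CD3G, CD2, LYZ, FCGR3A, MPO, LUM, CDH5 and VWF at 0 in every library. The other markers of these lists had counts in at least 1 group. With selinexor, CD3E (log2 3.23), CD8A (3.005), CSF1R (2.23) and COL1A1 (0.53) were called higher in OCI-LY3. In SU-DHL6, 1 T-cell marker was called higher and 2 lower. The level of a further marker list is not reported here. Replicates of a group differed by more than sampling noise (chi-square per degree of freedom of 11.5 or more), so none were merged.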

Additional observations from a re-analysis of the deposited data

Results flagged for a closer look

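The response to selinexor differed between the lines for CXCR4, CCR7 and GNA13 by a direct test of the difference, OCI-LY3 minus SU-DHL6, in the edgeR quasi-likelihood model with Benjamini-Hochberg adjustment. It was 1.62 on the log2 scale for CCR7 (adjusted p = 2.29e-06), and on TMM-scaled CPM 3 of 3 treated OCI-LY3 libraries lay above, and 3 of 3 treated SU-DHL6 libraries below, every untreated library of the same line. On the deposited FPKM the SU-DHL6 libraries overlapped (3.61, 3.77 and 3.33 in treated and 3.54, 3.63 and 3.83 in untreated cells), and with library totals the SU-DHL6 value was -0.04 (adjusted p = 0.784) and the difference 1.24 (adjusted p = 9.46e-06). It was 0.72 for CXCR4 (adjusted p = 0.000786), with the libraries apart in both lines on TMM-scaled CPM. On FPKM the libraries overlapped in both lines (7.37, 8.62 and 9.12 in treated and 7.68, 7.22 and 6.99 in untreated OCI-LY3, and 91.7, 82.8 and 86.6 in treated and 101.9, 89.9 and 97.8 in untreated SU-DHL6). With library totals the CXCR4 difference was 0.35 (adjusted p = 0.0556), and neither line was past the threshold (0.20, adjusted p = 0.119, in OCI-LY3 and -0.15, adjusted p = 0.211, in SU-DHL6). It was -0.62 for GNA13 (adjusted p = 0.00202), lower in 3 of 3 treated OCI-LY3 libraries, with overlapping libraries in SU-DHL6 on TMM-scaled CPM. On FPKM the treated SU-DHL6 libraries lay above the untreated ones (74.8, 85.05 and 82.8 in treated and 72.8, 55.98 and 60.9 in untreated cells). With library totals the SU-DHL6 value of GNA13 was 0.36 (adjusted p = 0.0106) and the difference -1.002 (adjusted p = 0.000108).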

How the results depend on the processing

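The number of the 10 genes called was 7 to 9 in OCI-LY3 (8 as reported), 5 to 7 in SU-DHL6 (7), 3 for the difference under all settings, 8 to 9 between untreated lines (8) and 9 to 10 between treated lines (9). Without 1 library each, these counts were 7 to 8, 5 to 7, 3, 8 to 9 and 9. The 3 called for the difference were CXCR4, CCR7 and GNA13, except with library totals, where CXCR5 (-0.44) was called and CXCR4 (0.35) was not. Of 900 recomputed gene values, 845 kept their sign and their side of the threshold, 23 were no longer past it, 5 came past it and 27 changed sign. The 900 cover 42 combinations of gene and comparison. CCR6 was followed only for the SU-DHL6 response and CXCR3 only for the OCI-LY3 response, as groups at or near 0 counts were left out. Deviations from the group means correlated at -0.12 to 0.05 between same-numbered replicates and at -0.096 to 0.105 between others. Whether cultures were handled in pairs was not tested. With the replicate block 7, 6, 3, 8 and 9 genes were called, and CXCR4 in OCI-LY3 (0.31, adjusted p = 0.0506) and CCR7 in SU-DHL6 (-0.30, adjusted p = 0.0835) were not. CCR7 in SU-DHL6 was also not called with upper-quartile factors (-0.25), limma-voom (-0.30), no filter (-0.29) or the line alone (-0.29), nor was CXCR5 there with the line alone (-0.32).

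All values that changed sign belonged to differences not called as reported. For the difference between responses, library totals gave -0.18 for S1PR1, -0.34 for S1PR2, -0.30 for P2RY8 and -0.36 for GPR183, limma-voom gave -0.43 for S1PR1, upper-quartile factors gave -0.0025 for S1PR2 and -0.0314 for GPR183, and no filter gave -0.0002 for GPR183. For P2RY8 between lines, library totals gave -0.0651 untreated and -0.37 treated, and upper-quartile factors -0.0135 untreated. Without 1 library each, the differences ran from -0.17 to 0.0688 for CXCR5, -1.19 to 2.98 for S1PR1, -0.0433 to 0.13 for S1PR2, -0.0292 to 0.18 for P2RY8 and -0.38 to 0.30 for GPR183, and P2RY8 between untreated lines from -0.0905 to 0.085. Library totals made 69.7% of all called genes higher in SU-DHL6, against 47.2% as reported, 27.1% against 53.9% for the difference and 34.6% against 50.2% between treated lines. The cause of these shifts was not tested. Depth limits S1PR1, GPR183 in SU-DHL6, CXCR3 in SU-DHL6 and CCR6 in OCI-LY3.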
